A study of Homo sapiens with 2 samples.

Results

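The replication-dependent histone genes of cultures labelled as a human melanoma cell line were compared after treatment with JNJ-7706621, an inhibitor whose known targets are Aurora kinases and cyclin-dependent kinases, and after its solvent. RNA was sequenced from 1 culture labelled SK-MEL-2 that received 1.75 µM JNJ-7706621 and from 1 such culture that received DMSO, each for 48 h. The genes were chosen by symbol alone: of 60527 genes in the expression table, 75 had a name beginning with HIST1H, HIST2H, HIST3H or HIST4H and no ending in PS plus a number, and 14 symbols with that ending were left out. The annotation gave 70 of the 75 as protein-coding and 5 as pseudogenes. By class there were 6 genes of the linker histone H1, 17 of H2A, 22 of H2B, 15 of H3 and 15 of H4.

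The core histones H2A, H2B, H3 and H4 form the protein spool that DNA winds around in a nucleosome, and H1 sits where the DNA enters and leaves it. Genes of this family lie in clusters, have no introns in their classical form, and are transcribed mainly while DNA is being replicated, when new chromatin needs histones. Their classical mRNAs are the only ones in animal cells known to end in a short stem-loop in place of a poly(A) tail. The stem-loop is bound by SLBP, and the U7 small nuclear ribonucleoprotein directs the cut just after it. Some of these genes can also give longer, polyadenylated transcripts, which has been described in differentiating and non-dividing cells.

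Values are FPKM, the fragments per kilobase of exon, scaled to the number of mapped fragments of the library. The library totals behind them were 22817719 reads for JNJ-7706621 and 23377161 reads for DMSO, and read numbers of single genes were recovered from the FPKM values. Histone genes took 0.0343% of the JNJ-7706621 total and 0.0214% of the DMSO total. With 1 library per group used here there is no replicate error and no test of treatment. The table has 2 more value columns, named like those used apart from the last number, which may be further libraries of the same groups and were not analysed here. Ranges in parentheses after a ratio are exact 95% Clopper-Pearson intervals, which cover counting error only. The libraries held little RNA of pigment cell genes: TYR, the tyrosinase of melanin synthesis, was at 0 in both, and SOX10 had 0 reads with JNJ-7706621 and 1 with DMSO. Of 7 melanocyte markers 2 reached a mean of 1 FPKM. These were MITF, with 2.27 FPKM with JNJ-7706621 and 2.65 FPKM with DMSO, and PMEL, with 3.71 FPKM with JNJ-7706621 and 2.00 FPKM with DMSO. The 7 together summed to 6.25 FPKM with JNJ-7706621 and 4.92 FPKM with DMSO. The 5 epithelial markers summed to 1979 FPKM with JNJ-7706621 and 1962 FPKM with DMSO, most of it from the keratins KRT8 and KRT18. Apart from MITF and PMEL, the markers thus went against the label of the cell line in both libraries.

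The stem-loops are shown first, because they are the feature that sets histone mRNAs apart and because the deposited values depend on how far a gene's model runs past them. A stem of 6 bases with GG at its start and CC at its end, G-U pairs allowed, around a loop of 4 bases and with T on both sides of the first border of stem and loop, was found in transcripts of 35 of the 75 genes in GENCODE release 29. In 32 genes it lay after the annotated stop codon, and the other 3, HIST2H2BC, HIST2H2BD and HIST3H2BA, are pseudogenes with no annotated stop. Where a stop was annotated, only bases after it were searched. Models that end at the stop, such as that of HIST1H2BK, could therefore hold no match. A missing match is not shown to mean a missing stem-loop. The 16 bases were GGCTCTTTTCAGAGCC in 18 genes, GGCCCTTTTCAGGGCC in 5, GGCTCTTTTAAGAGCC in 5, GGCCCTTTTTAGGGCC in 3, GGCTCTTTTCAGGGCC in 3 and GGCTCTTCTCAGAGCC in 1. Sites of 7 genes described in the text are given with 5 bases on each side, in the gene's own direction on GRCh38 chromosome 6, with the stem-loop in capitals. The capitals lie at chr6:26124669-26124684 (+) in HIST1H2AC, chr6:27133515-27133530 (+) in HIST1H2AG, chr6:26123472-26123487 (-) in HIST1H2BC, chr6:26158587-26158602 (+) in HIST1H2BD, chr6:26225596-26225611 (+) in HIST1H3E, chr6:26285131-26285146 (-) in HIST1H4H and chr6:27139654-27139669 (+) in HIST1H4I.
HIST1H2AC: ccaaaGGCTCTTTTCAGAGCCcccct
HIST1H2AG: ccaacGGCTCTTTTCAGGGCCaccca
HIST1H2BC: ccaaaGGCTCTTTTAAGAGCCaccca
HIST1H2BD: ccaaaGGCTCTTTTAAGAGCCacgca
HIST1H3E: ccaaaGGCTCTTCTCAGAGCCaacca
HIST1H4H: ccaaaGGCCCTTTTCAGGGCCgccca
HIST1H4I: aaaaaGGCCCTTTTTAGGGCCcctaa
In HIST1H2AG 1 of the 6 stem pairs is a G-U pair, and in the other sites shown all pairs are of the usual kind. HIST1H2BC and HIST1H2BD carry the same 16 bases.

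Reads of histone genes took a larger share of the JNJ-7706621 library. The 75 genes together had 7837 reads with JNJ-7706621 and 4999 reads with DMSO, a ratio of 1.61 (1.55 to 1.66) after division by the library totals, and their FPKM summed to 351 with JNJ-7706621 and 222 with DMSO. Few genes made up most of this: without HIST1H2AC, HIST1H2BK and HIST1H4I the other 72 genes had 3552 reads with JNJ-7706621 and 2432 with DMSO, a ratio of 1.50 (1.42 to 1.58). In a bulk library, more histone RNA per cell and a larger share of cells that make it cannot be told apart. How RNA was selected is not given, so a larger captured part of the histone RNA, such as forms with poly(A) tails, cannot be told apart from these either.

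The direction was mostly shared among the histone genes at a mean of at least 1 FPKM, and less so among those with lower values. FPKM was higher with JNJ-7706621 for 37 genes and lower for 15, while 23 were listed at 0 in both libraries. Among all genes of the table above 0 in either library, 53.6% were higher with JNJ-7706621. A mean of 1 FPKM over both libraries was reached by 21 of the 75, of which 19 were higher with JNJ-7706621 and 2 lower, against 49.6% of the 13241 genes of the whole table at that mean. Of these 21, 3 were under 1 FPKM with DMSO and entered through the JNJ-7706621 value, namely HIST1H2BC, HIST1H2BN and HIST1H3B, while none were under 1 FPKM with JNJ-7706621. The 31 genes under that mean with a read had 254 reads with JNJ-7706621 and 179 with DMSO, and 18 of them were higher and 13 lower.

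Size was read from the log2 difference, log2(FPKM + 1) with JNJ-7706621 minus that with DMSO, which understates differences of low values. A gene was called 2-fold different where this was at least 1 or at most -1. HIST1H2BJ, HIST1H2BC, HIST1H3B and HIST1H4I were called higher, 4 of 21, where 2.39% of all genes at that mean were called higher. Of these, HIST1H2BC and HIST1H3B reached that mean only through the JNJ-7706621 value. The share over all genes rests on the same filter. No histone gene was called lower, where 1.36% of all genes were. The counting interval of the ratio lay above 1 for 13 of the 21 and below 1 for 0, against 32.8% and 33.2% of all genes with recovered reads. The median log2 difference was 0.59 over the 21 genes and 0.00 over all genes at that mean. Short gene models were called higher more often: 9.45% of genes under 500 bases of exon and 3.99% of those from 500 to 1000 bases, which held 3 and 7 of the histone genes with 0 and 3 calls. The part of model length in the histone calls was not tested.

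**Figure D1:**
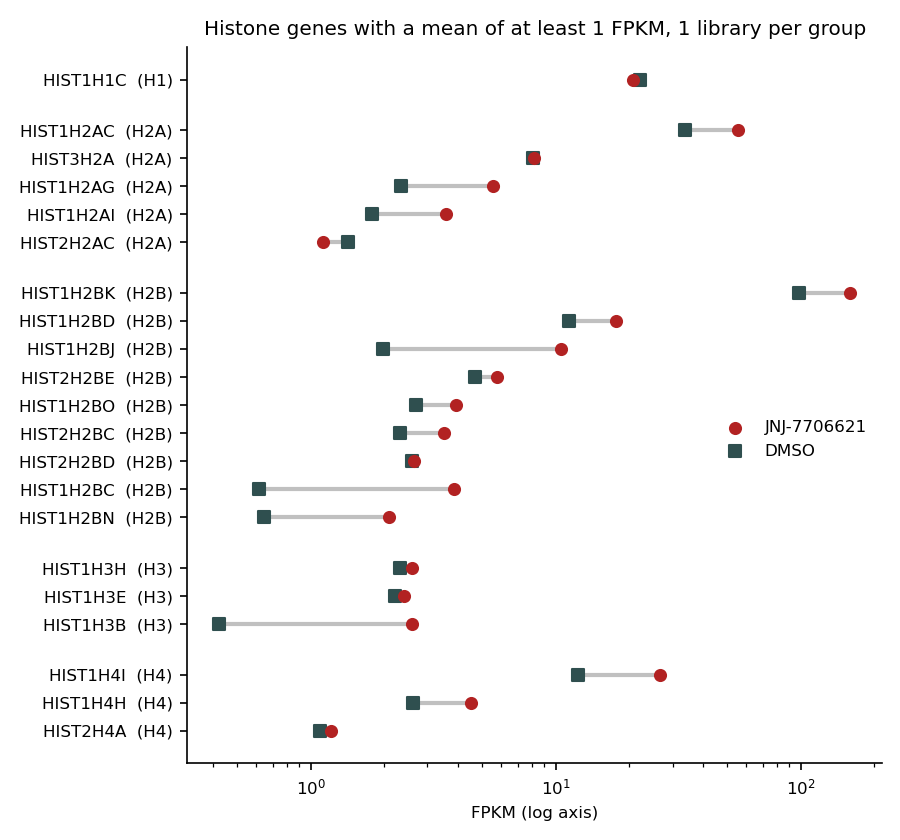
FPKM of the 21 histone genes with a mean of at least 1 FPKM, on a log axis, grouped by class; red circles are the JNJ-7706621 library, dark squares the DMSO library, and the grey line joins both values of a gene. All but HIST1H1C and HIST2H2AC have the red circle at a higher value, and HIST1H2BC, HIST1H2BJ and HIST1H3B have the longest lines.

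H2B was the largest class by level, with 60.5% of the summed histone FPKM with JNJ-7706621 and 57.3% with DMSO. Its 22 genes had 3491 reads with JNJ-7706621 and 2187 with DMSO, a ratio of 1.64 (1.55 to 1.73). All 9 H2B genes at a mean of 1 FPKM had higher values with JNJ-7706621, by 0.02 to 1.95 on the log2 scale with a median of 0.59. HIST1H2BK alone stood at 159.5 FPKM with JNJ-7706621 and 98.0 FPKM with DMSO, the highest level of any histone gene in both libraries, a ratio of 1.63 (1.49 to 1.77). Its annotated model at chr6:27146418-27146798 (-) holds just the 381 coding bases, so reads of its untranslated ends are not in this value. Without it the class ratio was 1.64 (1.53 to 1.76), so the ratio did not depend on the most abundant member. The rank of the class by level did. Without HIST1H2BK the H2B genes summed to 52.9 FPKM with JNJ-7706621 and 29.4 FPKM with DMSO. The H2A genes summed to 75.0 FPKM with JNJ-7706621 and 47.7 FPKM with DMSO.

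HIST1H2BJ had the widest log2 difference in the family with the pseudocount of 1, while with 0.1 HIST1H2BC and HIST1H3B were ahead of it, at 2.46 and 2.37 against 2.35. It stood at 10.5 FPKM with JNJ-7706621 and 1.98 FPKM with DMSO, from 228 and 44 reads, a log2 difference of 1.95 and a ratio of 5.31 (3.83 to 7.51). HIST1H2BC stood at 3.84 FPKM with JNJ-7706621 and 0.615 FPKM with DMSO, from 73 and 12 reads, a log2 difference of 1.58 and a ratio of 6.23 (3.36 to 12.6). Both encode canonical H2B and both lie at chromosome 6, HIST1H2BC at chr6:26114873-26123926 (-) and HIST1H2BJ at chr6:27125897-27132750 (-). HIST1H2BN, with a long spliced model of 5477 exon bases, had 2.09 FPKM with JNJ-7706621 and 0.648 FPKM with DMSO. Its ratio was 3.22 (2.51 to 4.18) and its log2 difference 0.91, just under the limit at these low values. The exons of HIST1H2BN overlap HIST1H2AK and HIST1H2AL over 7.2% of their length. Without these 3 genes the other 19 H2B genes had a ratio of 1.47 (1.38 to 1.55).

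The remaining H2B genes differed less. HIST1H2BD had 17.7 FPKM with JNJ-7706621 and 11.4 FPKM with DMSO, a ratio of 1.55 (1.31 to 1.84). HIST2H2BE, a chromosome 1 gene known for its polyadenylated transcript, had 5.77 FPKM with JNJ-7706621 and 4.68 FPKM with DMSO, a ratio of 1.23 (1.04 to 1.47). HIST1H2BO had 3.91 FPKM with JNJ-7706621 and 2.69 FPKM with DMSO, and its interval of 0.836 to 2.56 held 1. The 2 annotated pseudogenes HIST2H2BC and HIST2H2BD overlap each other on opposite strands, over 30.9% and 55.1% of their exons, so their reads cannot be told apart if counting ignored strand. HIST2H2BC had 3.51 FPKM with JNJ-7706621 and 2.32 FPKM with DMSO, while HIST2H2BD had 2.65 FPKM with JNJ-7706621 and 2.59 FPKM with DMSO. Under the mean of 1 FPKM, HIST1H2BE had 54 reads with JNJ-7706621 and 30 with DMSO, a ratio of 1.84 (1.16 to 2.99). Its exons overlap a gene on the other strand over 28.2% of their length. HIST1H2BH went the other way, with 4 reads with JNJ-7706621 and 15 with DMSO, a ratio of 0.273 (0.0660 to 0.858).

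**Figure D2:**
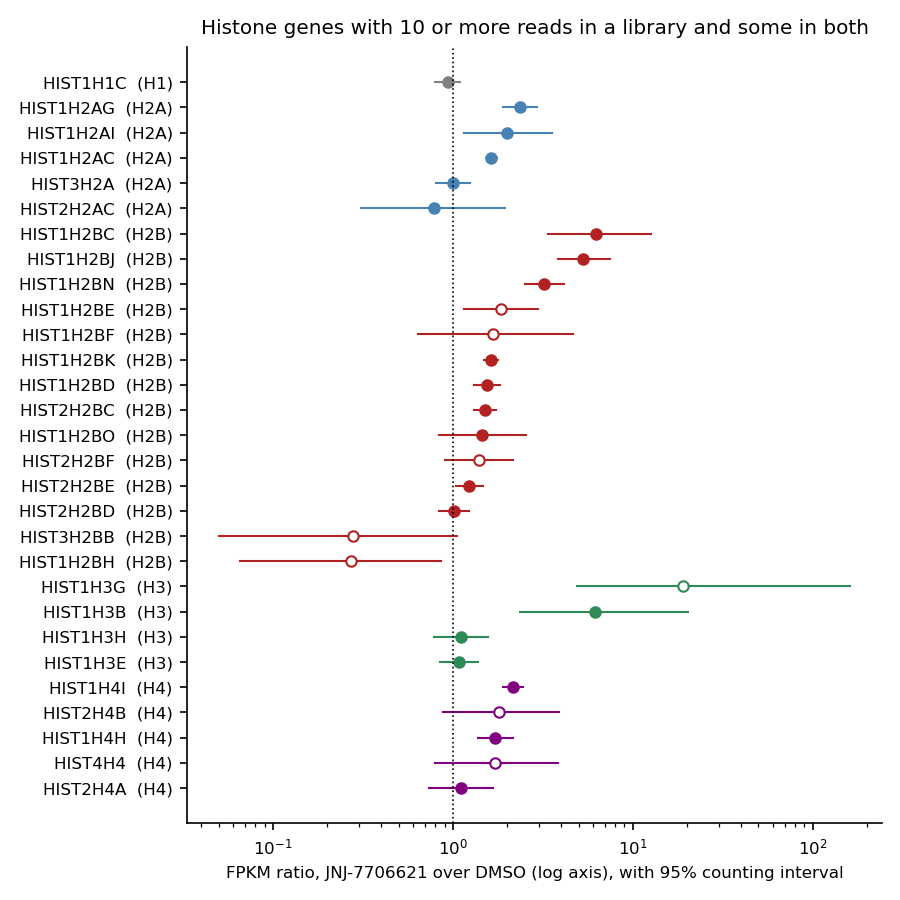
FPKM ratio of JNJ-7706621 over DMSO, on a log axis, for the 29 histone genes with at least 10 reads in 1 library and some reads in both; lines are 95% counting intervals, colours mark the class, and open circles are the 8 genes with a mean under 1 FPKM. Of the 21 filled circles, 13 have an interval wholly to the right of the dotted line at a ratio of 1. Among the open circles only HIST1H2BE and HIST1H3G do. HIST1H2BH is the gene whose interval lies wholly to the left of that line.

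H2A showed a difference of similar size, carried by fewer genes. The 17 H2A genes had 2622 reads with JNJ-7706621 and 1649 with DMSO, a ratio of 1.63 (1.53 to 1.73). HIST1H2AC, the most abundant, had 55.4 FPKM with JNJ-7706621 and 33.9 FPKM with DMSO, a ratio of 1.64 (1.53 to 1.75). HIST1H2AG had 5.53 FPKM with JNJ-7706621 and 2.34 FPKM with DMSO, a ratio of 2.37 (1.91 to 2.95) and a log2 difference of 0.97. HIST1H2AI had 3.57 FPKM with JNJ-7706621 and 1.79 FPKM with DMSO, a ratio of 2.00 (1.15 to 3.56). Of the stretches of 50 bases in HIST1H2AI, 62.3% also occur in another histone gene, so its share of the reads is uncertain. HIST3H2A, in a small cluster on chromosome 1, was nearly level at 8.13 FPKM with JNJ-7706621 and 8.08 FPKM with DMSO, a ratio of 1.01 (0.807 to 1.25). HIST2H2AC was lower with JNJ-7706621, at 1.12 FPKM against 1.43 FPKM with DMSO, on 10 and 13 reads, and its interval of 0.309 to 1.95 held 1. The 5 genes had a median log2 difference of 0.69, and none was called.

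H4 had the highest class ratio, most of it from 1 gene. Its 15 genes had 1112 reads with JNJ-7706621 and 601 with DMSO, a ratio of 1.90 (1.71 to 2.10). HIST1H4I had 26.8 FPKM with JNJ-7706621 and 12.4 FPKM with DMSO, from 790 and 374 reads, a log2 difference of 1.05 and a ratio of 2.16 (1.91 to 2.45). The other 14 H4 genes had 322 reads with JNJ-7706621 and 227 with DMSO, a ratio of 1.45 (1.22 to 1.73). Most of these reads, 222 with JNJ-7706621 and 132 with DMSO, were those of HIST1H4H. FPKM of the 14 genes summed to 6.91 with JNJ-7706621 and 6.17 with DMSO. HIST1H4H had 4.50 FPKM with JNJ-7706621 and 2.61 FPKM with DMSO, a ratio of 1.72 (1.38 to 2.15). HIST2H4A had 1.21 FPKM with JNJ-7706621 and 1.09 FPKM with DMSO. Of its stretches of 50 bases 97.5% occur in another histone gene, so that value is uncertain. HIST1H4K, under the mean of 1 FPKM, had 1 read with JNJ-7706621 and 8 with DMSO, a ratio of 0.128 (0.00289 to 0.955). Of its stretches of 50 bases 100% occur in another histone gene, so its reads are uncertain too. The median log2 difference of the 3 H4 genes at a mean of 1 FPKM was 0.61.

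H3 RNA was scarce in these libraries, and its genes split. The 15 genes summed to 8.81 FPKM with JNJ-7706621 and 5.72 FPKM with DMSO, from 296 and 220 reads, a ratio of 1.38 (1.15 to 1.65). HIST1H3B had 2.60 FPKM with JNJ-7706621 and 0.423 FPKM with DMSO, a log2 difference of 1.34 on 30 and 5 reads, with a ratio of 6.15 (2.36 to 20.3). HIST1H3G, under the mean of 1 FPKM, had 37 reads with JNJ-7706621 and 2 with DMSO, a ratio of 19.0 (4.89 to 162). The other H3 genes at that mean were close to level. HIST1H3H had 2.59 FPKM with JNJ-7706621 and 2.32 FPKM with DMSO, and HIST1H3E 2.40 FPKM with JNJ-7706621 and 2.22 FPKM with DMSO, with intervals of 0.790 to 1.58 and 0.853 to 1.38. The median log2 difference of the 3 genes was 0.11.

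H1 did not share the difference in sum. HIST1H1C was the only H1 gene at a mean of 1 FPKM, with 20.7 FPKM with JNJ-7706621 and 22.1 FPKM with DMSO, a ratio of 0.935 (0.798 to 1.10). The 6 H1 genes had 316 reads with JNJ-7706621 and 342 with DMSO, a ratio of 0.947 (0.810 to 1.11), an interval that lies below those of H2A, H2B, H3 and H4. Reads of 2 other H1 genes were each present in a single library. HIST1H1B had 13 reads with JNJ-7706621 and was listed at 0 with DMSO. With a floor of 3 reads in place of the 0 it was 4.44-fold higher, and the lower end of its counting interval was 3.12. HIST1H1D was listed at 0 with JNJ-7706621 and had 10 reads with DMSO. With the same floor it was 3.25-fold lower, and the counting interval of its ratio reached up to 0.457. HIST1H1A, HIST1H1E and the testis H1 gene HIST1H1T were listed at 0 in both.

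Besides HIST1H1T, other genes known mainly from testis, HIST1H2AA, HIST1H2BA and HIST3H3, were also listed at 0 in both libraries (named for that role, outside the rule for named genes). A value of 0 is not shown to mean absence of RNA here. RNAs that cells are known to use without a poly(A) tail, RN7SK, RMRP, RPPH1 and TERC, were listed at 0 in both libraries as well, and RN7SL1 had 5.86 FPKM with JNJ-7706621 and 9.30 FPKM with DMSO. These RNAs were chosen after their values were seen. Whether the libraries were made from RNA with poly(A) tails is not given in the sources used here. Exons of 4 histone genes at 0 in both libraries, HIST1H2AD, HIST1H2AM, HIST1H3D and HIST1H3J, overlap another gene over 98%, 88%, 100% and 44.6% of their length.

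**Figure D3:**
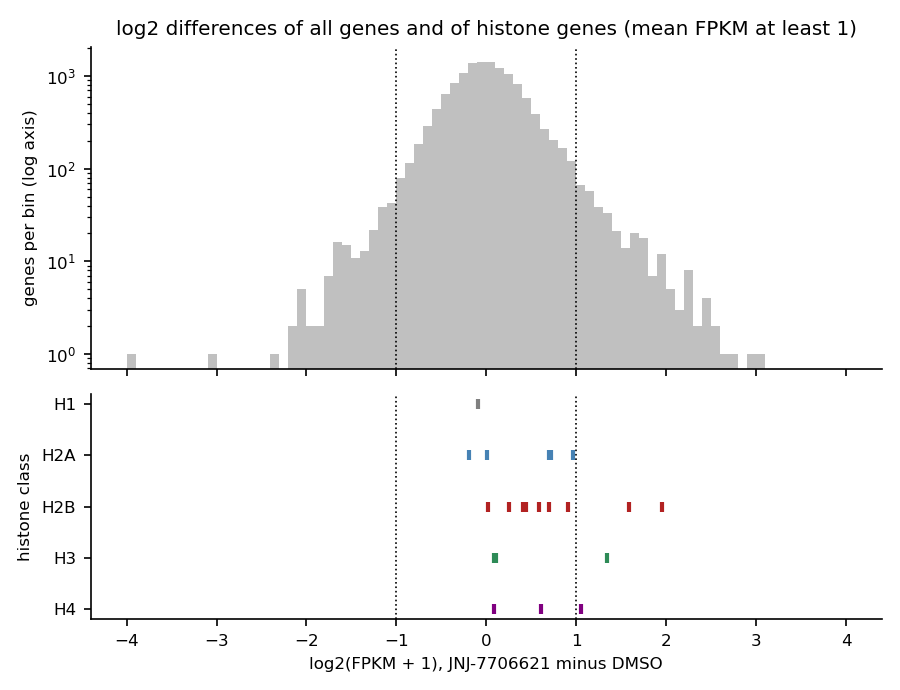
Log2 differences, JNJ-7706621 minus DMSO on log2(FPKM + 1), of all 13241 genes with a mean of at least 1 FPKM (upper panel, genes per bin of 0.1, log axis) and of the 21 histone genes by class (lower panel, 1 tick per gene); dotted lines mark -1 and 1. All genes centre on 0, and the ticks of H2B, H3 and H4 lie to the right of 0, with 2, 1 and 1 of them past the right line.

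The histone genes were grouped by how far their models run past the stem-loop, and read numbers, unlike FPKM, grow with model length. In 26 genes at least 1 annotated transcript reached more than 100 bases of genome beyond the stem-loop. Of these, 25 had reads and 14 had a mean of 1 FPKM. Their median level was 1.65 FPKM with JNJ-7706621 and 0.632 FPKM with DMSO. They held 73.6% of the histone reads with JNJ-7706621 and 72.9% with DMSO, and their FPKM summed to 146 with JNJ-7706621 and 89.7 with DMSO. In 9 genes the models ended by the stem-loop, 6 had reads and only HIST1H2AI had a mean of 1 FPKM. Their 52 reads with JNJ-7706621 and 34 with DMSO were 0.664% and 0.680% of the histone reads. The shares were thus alike in both libraries, while the summed reads of the 26 genes were 5765 with JNJ-7706621 and 3646 with DMSO. The 14 genes had a median log2 difference of 0.52, and 2 of them, HIST1H2BC and HIST1H4I, were called higher. The models of 39 genes had no stem-loop match and no annotated 3′ untranslated region over 100 bases. Many of these models, such as that of HIST1H1C, end at the stop codon and could hold no match. This group holds HIST1H2BK and HIST1H3B, and 5 of its genes had a mean of 1 FPKM. Its genes held 22.9% of the histone reads with JNJ-7706621 and 25.5% with DMSO, but more of the level per length, with FPKM sums of 190.3 with JNJ-7706621 and 127.5 with DMSO, most of it from HIST1H2BK. HIST1H2BJ was the only gene with over 100 bases of 3′ untranslated region and no match. The FPKM values do not show which 3′ end the reads came from.

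The clusters differed. The HIST1 cluster on chromosome 6, with 55 genes, had 6472 reads with JNJ-7706621 and 3883 with DMSO, a ratio of 1.71 (1.64 to 1.78), and held all 4 calls. Of the 15 HIST2 genes on chromosome 1, 13 lie in a cluster at chr1:149782689-149887916, with a ratio of 1.30 (1.20 to 1.42). The cluster had 1176 reads with JNJ-7706621 and 924 with DMSO. Most were those of the overlapping pseudogenes HIST2H2BC and HIST2H2BD, with 516 and 218 reads with JNJ-7706621 and 350 and 219 with DMSO. The pseudogenes HIST2H2BA and HIST2H3DP1 lie far from the cluster and were listed at 0 in both libraries. The 4 HIST3 genes had a ratio of 0.962 (0.775 to 1.19). HIST4H4, a lone gene on chromosome 12, had 20 reads with JNJ-7706621 and 12 with DMSO. A gap of 848288 bases between neighbouring gene starts divides HIST1, a division made after the values were seen. Its 34 genes at chr6:25726132-26285638 had 3349 reads with JNJ-7706621 and 2250 with DMSO, a ratio of 1.52 (1.45 to 1.61), and its 21 genes at chr6:27125897-27893843 had 3123 reads with JNJ-7706621 and 1633 with DMSO, a ratio of 1.96 (1.84 to 2.08). At the start of the second stretch HIST1H2BJ, HIST1H2AG, HIST1H4I and HIST1H2BK follow each other within 20902 bases, with no other histone gene of the set between them, and together had 2689 reads with JNJ-7706621 and 1414 with DMSO.

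H2A and H2B genes often stand head to head and share the stretch between their starts. In 3 such pairs both genes had a mean of 1 FPKM. The partners HIST1H2BJ and HIST1H2AG, whose starts lie 292 bases apart, were both higher with JNJ-7706621, at ratios of 5.31 (3.83 to 7.51) and 2.37 (1.91 to 2.95). HIST1H2BC and HIST1H2AC, 219 bases apart, were also both higher, at ratios of 6.23 (3.36 to 12.6) and 1.64 (1.53 to 1.75). In both pairs the H2B partner had the higher ratio, and the intervals of partners did not overlap. HIST1H2BC reached that mean only through its JNJ-7706621 value. Pairs with a partner under that mean are not covered by this, and in some of them the H2B partner had the lower ratio. HIST2H2BE and HIST2H2AC, 323 bases apart, had ratios of 1.23 (1.04 to 1.47) and 0.788 (0.309 to 1.95), whose intervals overlapped. HIST1H2BK had 1387 reads with JNJ-7706621 and 873 with DMSO, while its partner HIST1H2AH, 331 bases away, was listed at 0 in both. Level and difference were therefore not shared within every pair.

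The promoters of HIST1H2BJ, HIST1H2BC and HIST1H4I are shown because these are the H2B and H4 genes that were called higher. Each runs from 250 bases before to 50 after the RefSeq start on GRCh38.p14, in the gene's own direction, at chr6:27132746-27133045 (-) for HIST1H2BJ, chr6:26123877-26124176 (-) for HIST1H2BC and chr6:27139032-27139331 (+) for HIST1H4I. Capitals mark matches, on either strand, to the octamer ATTTGCAT that the POU factors OCT1 and OCT2 bind, to the CCAAT box bound by NF-Y, and to the TATA box letters TATAAA. The RefSeq start of HIST1H4I lies 694 bases inside its GENCODE model.
HIST1H2BJ: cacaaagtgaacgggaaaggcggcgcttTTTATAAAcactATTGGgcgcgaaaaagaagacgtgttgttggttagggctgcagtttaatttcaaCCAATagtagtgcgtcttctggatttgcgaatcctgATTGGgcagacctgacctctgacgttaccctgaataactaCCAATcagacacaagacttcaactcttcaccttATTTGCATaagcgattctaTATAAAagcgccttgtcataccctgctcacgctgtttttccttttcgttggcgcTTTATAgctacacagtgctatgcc
HIST1H2BC: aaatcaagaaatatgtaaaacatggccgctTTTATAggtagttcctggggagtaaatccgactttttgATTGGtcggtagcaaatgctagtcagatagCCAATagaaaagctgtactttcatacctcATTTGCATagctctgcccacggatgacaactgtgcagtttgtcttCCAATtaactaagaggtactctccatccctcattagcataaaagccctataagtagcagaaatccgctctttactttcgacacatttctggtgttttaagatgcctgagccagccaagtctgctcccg
HIST1H4I: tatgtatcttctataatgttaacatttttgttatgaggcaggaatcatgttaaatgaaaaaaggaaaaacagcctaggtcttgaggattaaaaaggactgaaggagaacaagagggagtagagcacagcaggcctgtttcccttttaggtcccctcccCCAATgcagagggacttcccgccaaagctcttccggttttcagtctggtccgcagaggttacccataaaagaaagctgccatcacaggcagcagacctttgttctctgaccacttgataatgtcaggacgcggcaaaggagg
The HIST1H2BJ and HIST1H2BC windows each hold the octamer and several CCAAT boxes. HIST1H2BJ has TATAAA in its own direction from 28 bases before the start. The HIST1H2BC window holds these letters on the other strand only, at 220 bases before the start. The HIST1H4I window holds 1 CCAAT box and neither the octamer nor TATAAA.

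Motif content differed by histone class. RefSeq promoters were matched for 65 of the 75 genes. The octamer was found in 14 of 18 H2B and 11 of 16 H2A promoters, in 1 of 12 H3 promoters, and in 0 of the 6 H1 and 0 of the 13 H4 promoters, against 1.80% of all 27305 promoters. Windows of head-to-head partners overlap, so a match can count for both partners. The 1 H3 promoter is that of HIST1H3D, whose RefSeq window is the same as that of the H2A gene HIST1H2AD. CCAAT was present in every H1, H2A, H2B and H3 promoter matched and in 3 of 13 H4 promoters, against 35.7% of all promoters. TATAAA was present, on either strand, in 43 of the 65, against 12.0% of all. Among the called genes HIST1H2BJ and HIST1H2BC had the octamer, and HIST1H3B and HIST1H4I did not. HIST1H2BK and HIST2H2BE, with ratios of 1.63 and 1.23, had the octamer near the same place as HIST1H2BJ, from 46 or 47 bases before the start. A match is a stretch of letters and does not show binding.

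**Figure D4:**
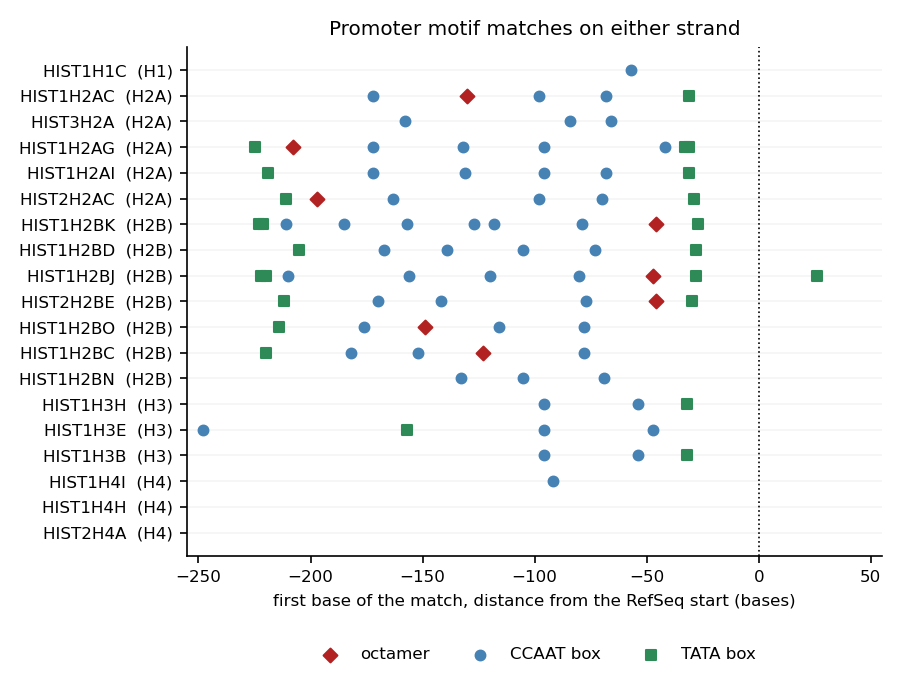
Matches to the octamer (red diamonds), the CCAAT box (blue circles) and TATAAA (green squares), on either strand, by the distance in bases of the first base of the match from the RefSeq start, for the 19 histone genes at a mean of 1 FPKM with a matched promoter. Octamers appear in H2A and H2B rows only, and in HIST1H2BK, HIST1H2BJ and HIST2H2BE they stand at nearly the same distance from the start.

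Genes that make, process and degrade histone mRNA showed no common direction. All 33 listed were in the table and 31 had a mean of 1 FPKM. Of these, 16 were higher with JNJ-7706621 and 15 lower, against 49.6% higher over all genes, with a median log2 difference of 0.02. In this list 2 genes were called higher and 0 lower, against 2.39% and 1.36% of all genes. The 2 called genes encode subunits of one kinase, known to promote histone transcription at the entry into S phase. CDK2, its catalytic subunit and a known target of the compound's class, had 21.1 FPKM with JNJ-7706621 and 9.06 FPKM with DMSO, a ratio of 2.33 (2.14 to 2.53), and 16.8% of its exon length overlaps another gene. CCNE1, its cyclin E1 subunit, had 10.6 FPKM with JNJ-7706621 and 4.69 FPKM with DMSO, a ratio of 2.25 (1.95 to 2.61). CCNE2, the other cyclin E, had 2.43 FPKM with JNJ-7706621 and 2.10 FPKM with DMSO, and 37.1% of its exon length overlaps another gene. The S-phase transcription factors E2F1, E2F2 and E2F3 had log2 differences of 0.91, 0.86 and 0.64.

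NPAT, the coactivator of histone loci that CDK2 with cyclin E phosphorylates, had 0.541 FPKM with JNJ-7706621 and 1.15 FPKM with DMSO, a ratio of 0.469 (0.363 to 0.603), with a mean under 1 FPKM. CASP8AP2, a component of histone locus bodies, had 0.837 FPKM with JNJ-7706621 and 1.46 FPKM with DMSO, a ratio of 0.575 (0.469 to 0.702). HINFP, which binds H4 promoters, was level at a ratio of 1.02 (0.861 to 1.22), and YY1, a general promoter factor, had one of 0.899 (0.858 to 0.943). Processing factors were mixed. SLBP, the stem-loop binding protein, had 34.5 FPKM with JNJ-7706621 and 29.6 FPKM with DMSO, a ratio of 1.16 (1.08 to 1.25). Of the U7-specific ring proteins, LSM10 had 12.0 FPKM with JNJ-7706621 and 8.12 FPKM with DMSO, a ratio of 1.48 (1.27 to 1.73). LSM11 had 1.45 FPKM with JNJ-7706621 and 1.51 FPKM with DMSO. The zinc finger protein ZNF473, which takes part in processing with U7, had 3.49 FPKM with JNJ-7706621 and 2.31 FPKM with DMSO, a ratio of 1.51 (1.32 to 1.73). The U7 RNA gene RNU7-1 lies wholly within another gene's exons and was listed at 0 in both.

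No turnover factor was called. ERI1, the exonuclease that trims the histone stem-loop end, had 7.08 FPKM with JNJ-7706621 and 6.20 FPKM with DMSO. UPF1, a helicase needed for histone mRNA decay when replication stops, had 8.53 FPKM with JNJ-7706621 and 8.63 FPKM with DMSO. TUT7, a uridylyltransferase that marks RNA ends for decay, had the lowest log2 difference on the list, -0.64, with 1.90 FPKM with JNJ-7706621 and 3.51 FPKM with DMSO.

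Histone chaperones, which carry histones to chromatin, were higher more often than lower. All 29 listed were in the table, 27 had a mean of 1 FPKM, and 20 of these were higher with JNJ-7706621 and 7 lower, against 49.6% higher over all genes, with a median log2 difference of 0.13. The list had 1 call, higher, a share close to the 2.39% of all genes. MCM2, a helicase subunit that also holds parental histones at the fork, was called higher, with 28.8 FPKM with JNJ-7706621 and 13.0 FPKM with DMSO, though 23.6% of its exon length overlaps another gene. HJURP, the chaperone of the centromeric H3 variant, had a log2 difference of 0.83, and TONSL, which recognises newly deposited H4, one of 0.81. CHAF1B, a subunit of the CAF-1 complex that deposits H3 and H4 behind the fork, had one of 0.64. ANP32E, a chaperone that removes H2A.Z, had the lowest at -0.71, with 21.0 FPKM with JNJ-7706621 and 35.0 FPKM with DMSO.

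**Figure D5:**
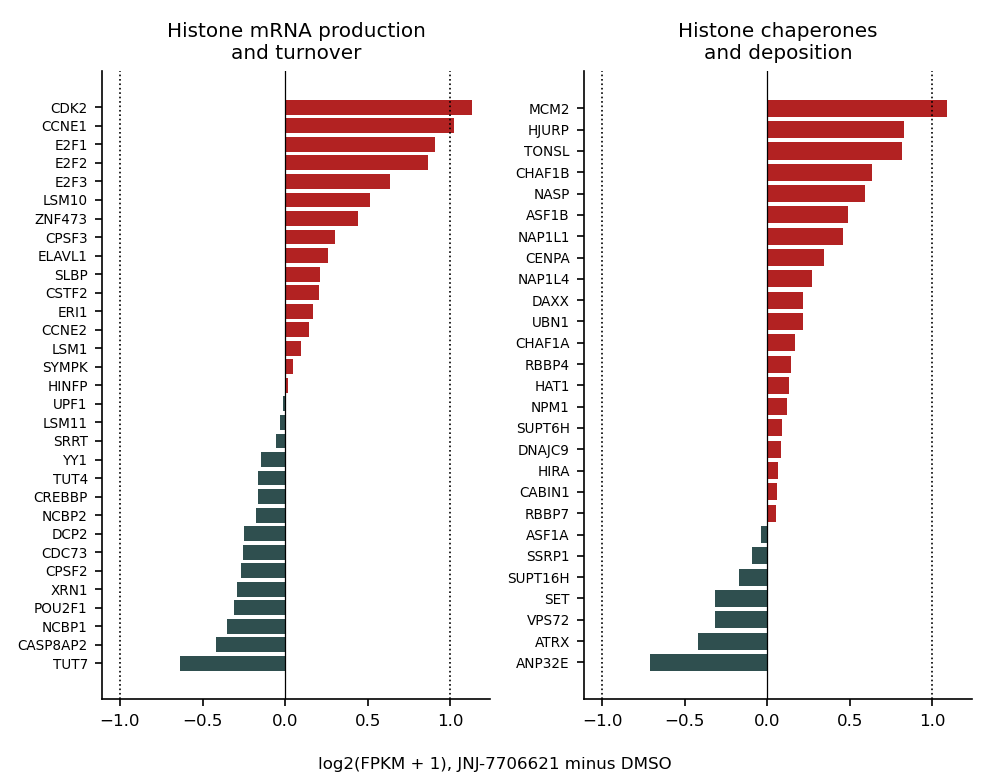
Log2 difference, JNJ-7706621 minus DMSO on log2(FPKM + 1), of the 31 genes of histone mRNA production and turnover (left) and the 27 chaperone and deposition genes (right) with a mean of at least 1 FPKM; red bars are positive, dark bars negative, and dotted lines mark -1 and 1. CDK2, CCNE1 and MCM2 pass the right line and no gene passes the left one.

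Histone variant genes, most of which cells also transcribe outside S phase into mRNAs with poly(A) tails, are set beside the family. Of 6 such genes 5 were lower with JNJ-7706621 and 1 higher, against 49.6% higher over all genes. Among the lower ones, the interval of H2AFX, 0.852 to 1.004, held 1. The linker histone gene H1F0 had 33.1 FPKM with JNJ-7706621 and 103 FPKM with DMSO, a ratio of 0.321 (0.304 to 0.339), and H1FX had 23.2 FPKM with JNJ-7706621 and 57.1 FPKM with DMSO, a ratio of 0.405 (0.373 to 0.440). Both were called lower, as were 1.36% of all genes, though 22.9% of the exon length of H1FX overlaps another gene. H3F3B, a gene of the H3 form laid down outside replication, had 61.3 FPKM with JNJ-7706621 and 88.4 FPKM with DMSO. H2AFZ, the gene of H2A.Z, was the exception, with 126 FPKM with JNJ-7706621 and 101 FPKM with DMSO. Proliferation markers did not share one direction. MKI67 had 6.96 FPKM with JNJ-7706621 and 11.0 FPKM with DMSO, TOP2A 21.5 FPKM with JNJ-7706621 and 29.9 FPKM with DMSO, and the replication clamp gene PCNA 392 FPKM with JNJ-7706621 and 362 FPKM with DMSO. Their part in the histone values was not tested.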

How the data were processed

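Gene-level FPKM values were deposited by the authors, each row with its Ensembl identifier and symbol. The build hg38 and the tool edgeR appear in the submitters' processing notes, with no version or role. Aligner, counter, annotation, strand setting and RNA selection were not given in the sources used here. Of 4 value columns, 2 match the labels of the samples used and 2 were not used. Groups came from the labels, 1 library each.

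FPKM times exon length must be whole reads over the library total. With totals of 22817719 for JNJ-7706621 and 23377161 for DMSO, whole reads (within 0.0001) were recovered for 27807 of 28016 annotated genes above 0, 99.7% of each total, with lengths of 0.25 to 4 times the GENCODE release 29 length. Of the 52 histone genes with reads, 49 matched at the annotated length and 3 at another one. By identifier 73 of the 75 genes matched the annotation, and HIST1H3B and HIST1H3C matched by symbol. Ratios carry exact 95% Clopper-Pearson intervals, given the summed reads, and a floor is 3 reads. Without molecular identifiers reads are no independent molecules, so both cover nothing but counting error.

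Log2 differences used a pseudocount of 1 and genes whose mean FPKM was 1 or more, and a call needs a log2 difference of 1 in size. Named genes are the histone genes at that mean or called under any alternative listed, those with at least 10 reads in 1 library and an interval without 1, up to 5 of each other list by size of difference, and SLBP, NPAT, CASP8AP2, LSM10, LSM11, ZNF473, ERI1, UPF1, CDK2, CCNE1 and CCNE2. The histone genes and all lists were chosen with earlier results of these data known. Stretches of 50 bases were compared among annotated transcripts of the histone genes. Promoters are those of RefSeq. The calculations were tested on simulated data. Software was Python 3.11.15 with numpy 2.4.6, pandas 2.3.3, scipy 1.17.1 and matplotlib 3.10.9. Alternatives were other pseudocounts, no filter, rescaling to a common sum, centring, and protein-coding genes only.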

Additional observations from a re-analysis of the deposited data

How the results depend on the processing

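With 1 library per group no replicate could be left out. No paired analysis was possible because the groups share fewer than 2 replicate numbers. The 4 histone genes called higher were called under each pseudocount, filter and scaling tried. With pseudocounts of 0.1 and 0.5, and with each library rescaled to a sum of 1000000, 6 were called, HIST1H2AG and HIST1H2BN joining them. Under the rescaling 1 histone gene, HIST1H4K, was called lower, at -1.41 from 1 and 8 reads. All its stretches of 50 bases occur in another histone gene, so that call is uncertain. Over all genes the 316 higher and 180 lower calls became 608 and 409 with a pseudocount of 0.1, 714 and 478 when rescaled, and 274 lower with a pseudocount of 0.5. The median log2 difference without a filter, where genes at 0 in both libraries count, was 0 for all 75 genes, for H2A and for H4, and 0.17 for H2B. Rescaled, where other genes entered, it was 0.50 for all histone genes, 0.51 for H2B and 0.39 for H4. The H4 median was 0.76 with a pseudocount of 0.1 and 0.83 without overlapping genes, an alternative chosen after seeing the data, and the H2B median was 0.70 over protein-coding genes. The ratio of summed reads without the most abundant gene was 1.33 for H1, on 13 and 10 reads, and 1.45 for H4. Under other pseudocounts 152 values of named genes kept their direction and side of the limit, and 6 passed it, those of HIST1H2AG and HIST1H2BN under both, and of E2F2 and TONSL under 0.1. Depth limits the histone genes with few reads, and no value here measures the spread between cultures.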
